A study of Homo sapiens with 6 samples.

Results

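Hyaluronan synthesis and breakdown were followed through 8 genes in YAPC cells, a human pancreatic cancer line, after Dox-driven expression of the transcription factor GLI2. The genes were chosen by symbol, with earlier results of these data known, and are HAS2, HAS3, CEMIP, HYAL1, HYAL2, HYAL3, HMMR and UGDH. Each matched 1 entry of the table, HYAL3 in an entry merged with NAT6, so no choice by the highest mean level among repeated entries was needed. They are 8 of 25442 genes in the table, and 6 of them, all but HAS2 and HYAL1, were tested, together with every other gene averaging 1 FPKM or more over the libraries (12493 in all). The unit, FPKM, is a count of sequenced fragments relative to the length of the transcript and the size of the library. Because the group was set with the iGLI2 to iEV differences known, the adjusted p-values given for its members come from the fit of all tested genes and describe the members without being independent support.

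Hyaluronan is a long, unsulfated glycosaminoglycan of alternating glucuronic acid and N-acetylglucosamine, and it is a major component of the dense stroma of pancreatic cancer. It is made at the plasma membrane by the synthases HAS1, HAS2 and HAS3 from UDP-glucuronate, which UGDH forms from UDP-glucose, and from UDP-N-acetylglucosamine. It is cut by hyaluronidases, among them HYAL1 and HYAL2, with CEMIP and CEMIP2 as further hyaluronan-degrading proteins, and cells bind it through receptors such as CD44 and HMMR. The product itself was not measured here, and all values are mRNA levels.

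The 6 libraries were made from total RNA of YAPC cells carrying rtTA, 3 with a pRetroX-Tight-Puro vector holding GLI2 (iGLI2) and 3 with the empty vector (iEV). Cells of both groups had been kept for 6 days in 1 μg/ml Dox, and cells without Dox are not part of the comparison. The sources used here do not state whether the 3 libraries of a group came from separate cultures, or whether the lines were clones or pools, so p-values measure the spread between these libraries. Sample codes were YRE1A, YRE1B and YRE2A for iEV and YRG1A, YRG1B and YRG2B for iGLI2. Within each group some libraries share the digit of the code, and the labels do not say what it stands for. As RNA was taken in bulk, a change in the share of cells of a kind and a change in RNA per cell cannot be told apart.

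GLI2 itself was at 0.466, 0.412 and 0.344 FPKM in iEV replicates 1 to 3 and at 94.5, 207 and 195 FPKM in iGLI2 replicates 1 to 3, so every library matched its label, and iGLI2 replicate 1 had the lowest induction. The epithelial markers KRT19, EPCAM and CDH1 were present in every library. KRT8 and KRT18 were listed at 0 in all 6, which in a table of this kind can be a failed estimate. The 5 epithelial markers summed to 1025 to 1156 FPKM in iEV and 1111 to 1173 FPKM in iGLI2. KRT19 went from a mean of 621 to 548 FPKM and did not pass the test (limma adjusted p = 0.195). EPCAM rose from 405 to 523 FPKM (limma adjusted p = 0.00709) and CDH1 from 53.2 to 68.9 FPKM (adjusted p = 0.0169, limma). The 6 fibroblast markers summed to 1.36 to 1.57 FPKM in iEV and 2.31 to 3.02 FPKM in iGLI2, carried by COL1A1, with DCN at 0 throughout. COL1A1 rose from a mean of 1.41 to 2.69 FPKM (limma adjusted p = 0.011). The 5 leukocyte markers summed to 3.27 to 3.55 and 2.93 to 3.38 FPKM, carried by CD68. The part of these markers in the results was not tested. The values summed to 981341 to 1082684 FPKM per iEV library and 803145 to 889555 per iGLI2 library, and a single small RNA gene, MIR4461, took 42.6 to 45.4% and 35.7 to 37.7% of these sums. The depth of the libraries is unknown.

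HAS3 and CEMIP were higher in iGLI2 cells, and HYAL2, HYAL3, HMMR and UGDH did not pass the test. HAS3 rose 11.7-fold in mean FPKM and CEMIP 18.9-fold, and each moved in all 3 iGLI2 libraries. These are 2 of the 6 tested members, and CEMIP reached the level needed for testing only through its iGLI2 libraries. Of all genes tested, 21.9% passed an adjusted p of 0.05 (2742 of 12493), 10.1% (1262) as higher and 11.8% (1480) as lower. The split depends on the scaling. When the small RNA genes were left out and the libraries rescaled, 1786 genes were higher and 1223 lower, so that 59.4% of the calls were increases in place of 46.0%. The members' median difference in log2(FPKM + 1) was 0.13, against -0.01 over all genes tested.

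**Figure D1:**
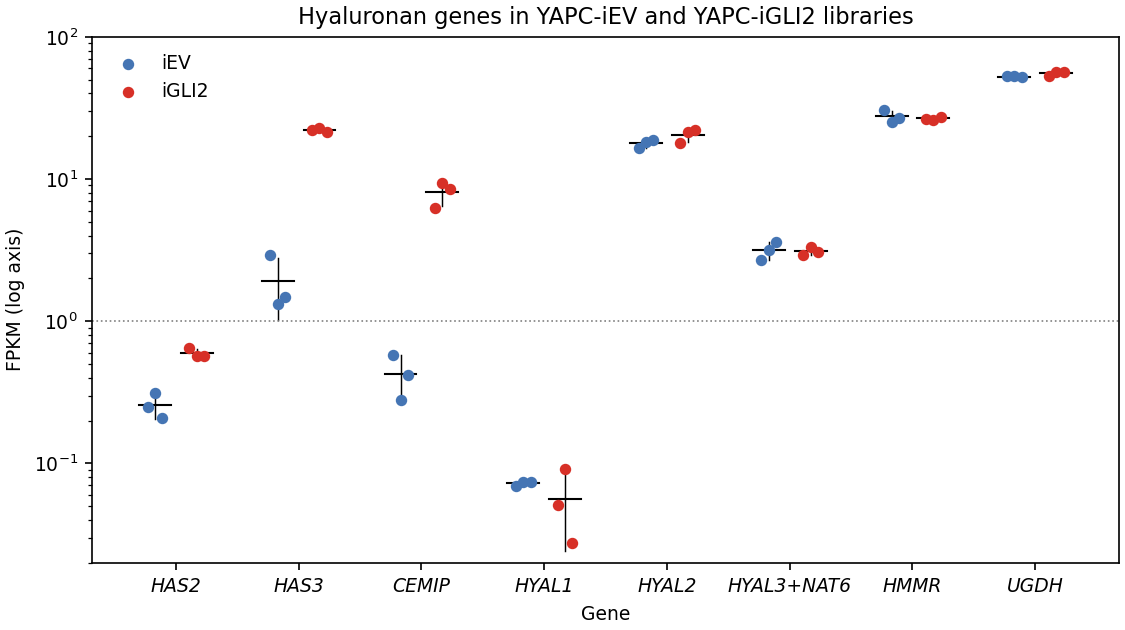
FPKM (log axis) of the 8 hyaluronan genes in each of the 3 iEV (blue) and 3 iGLI2 (red) libraries, in replicate order from left to right, with the group mean (bar) and SD (vertical line). The dotted line marks the mean of 1 FPKM needed for testing. HAS3 and CEMIP stand apart between the groups, from means of 1.91 and 0.425 FPKM to 22.2 and 8.05 FPKM.

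The sequence just upstream of the start site is shown for CEMIP, the member with the largest ratio of means, because GLI2 is a sequence-specific transcription factor. The window is the 250 bases before the start of the MANE Select transcript in GRCh37, read 5′ to 3′ on the coding strand, at chr15:81071461-81071710 on the plus strand. Capitals mark TATAAA, the TATA box core.
CEMIP: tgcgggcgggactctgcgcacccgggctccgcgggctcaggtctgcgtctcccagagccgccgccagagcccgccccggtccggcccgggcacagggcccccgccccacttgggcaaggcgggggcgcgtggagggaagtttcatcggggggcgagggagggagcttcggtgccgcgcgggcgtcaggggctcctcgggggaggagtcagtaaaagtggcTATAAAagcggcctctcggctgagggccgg
The window held 74.4% GC and 28 CpG, against a median of 58% GC over 35116 RefSeq promoter windows of the same length. Its TATAAA began at position -30 from the start site, and 6.8% of all RefSeq windows held those letters on the coding strand. It had no stretch matching at least 7 of the 9 bases of the GLI consensus GACCACCCA on either strand, which 51.9% of all RefSeq windows had. Stretches matching 7 of the 9 bases were in the windows of HMMR (3), HYAL1 (3) and UGDH (2), and not in those of HYAL2 and HYAL3. In the windows of CEMIP, HYAL1, HYAL2, HYAL3, HMMR and UGDH, none had 8 or 9 of the 9 bases, which 5.81% of all RefSeq windows had, 0.199% with all 9. These letters say nothing on where GLI2 was bound.

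HAS3, the synthase that makes comparatively short hyaluronan chains, was the main synthase transcript in both groups. The gene has 4 exons in its MANE Select transcript and lies within the table's locus chr16:69139467-69166493 (hg19). Its level was 2.93, 1.32 and 1.47 FPKM in iEV replicates 1 to 3 and 22.2, 23.0 and 21.4 FPKM in iGLI2 replicates 1 to 3. The groups were far apart, iEV replicate 1 was the highest control, and the iGLI2 libraries lay close together although GLI2 was lowest in iGLI2 replicate 1. The means were 1.91 ± 0.887 and 22.2 ± 0.799 FPKM (SD, n = 3 each). On the log2(FPKM + 1) scale, which understates changes of low genes, the difference was 3.04 (SE 0.20, 95% interval 2.54 to 3.54, limma adjusted p = 5.54e-04), the 37th largest increase of 12493. Leaving out single libraries gave differences from 2.90 to 3.28. CHTF8 lies on the opposite strand in the same locus and was at 45.1 ± 1.77 and 41.7 ± 0.963 FPKM (adjusted p = 0.23, limma), and was not higher in any iGLI2 library. The sources used here do not say whether counting used strand.

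HAS2, the synthase of long chains, was far lower and lay under the level needed for testing. Its level was 0.251, 0.312 and 0.207 FPKM in iEV and 0.645, 0.566 and 0.570 FPKM in iGLI2, over the table's locus chr8:122625271-122657564. Every iGLI2 library was above every iEV library, at 2.32 times the mean (0.256 ± 0.0527 against 0.594 ± 0.0442 FPKM, n = 3 each). In the fit without a filter on low values the difference was 0.34 (SE 0.04, limma adjusted p = 0.00584). HAS2-AS1, a noncoding RNA on the opposite strand in the same locus, moved alongside, from a mean of 0.0984 to 0.307 FPKM (adjusted p = 0.0405 in the same limma fit), and without strand in the counting the pair cannot be told apart. HAS1, the remaining synthase, was listed at 0 in 4 of the 6 libraries and was at most 0.0508 FPKM.

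Added together, the 3 synthase transcripts came to 3.20, 1.63 and 1.68 FPKM in iEV replicates 1 to 3 and to 22.9, 23.6 and 22.0 FPKM in iGLI2. HAS3 made up 91.3, 80.9 and 87.7% of this sum in iEV and 97.2, 97.6 and 97.2% in iGLI2. HAS2 held 7.82 to 19.1% and 2.40 to 2.82%. Although HAS2 was higher in iGLI2 libraries, its share of the synthase transcripts was therefore lower.

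**Figure D2:**
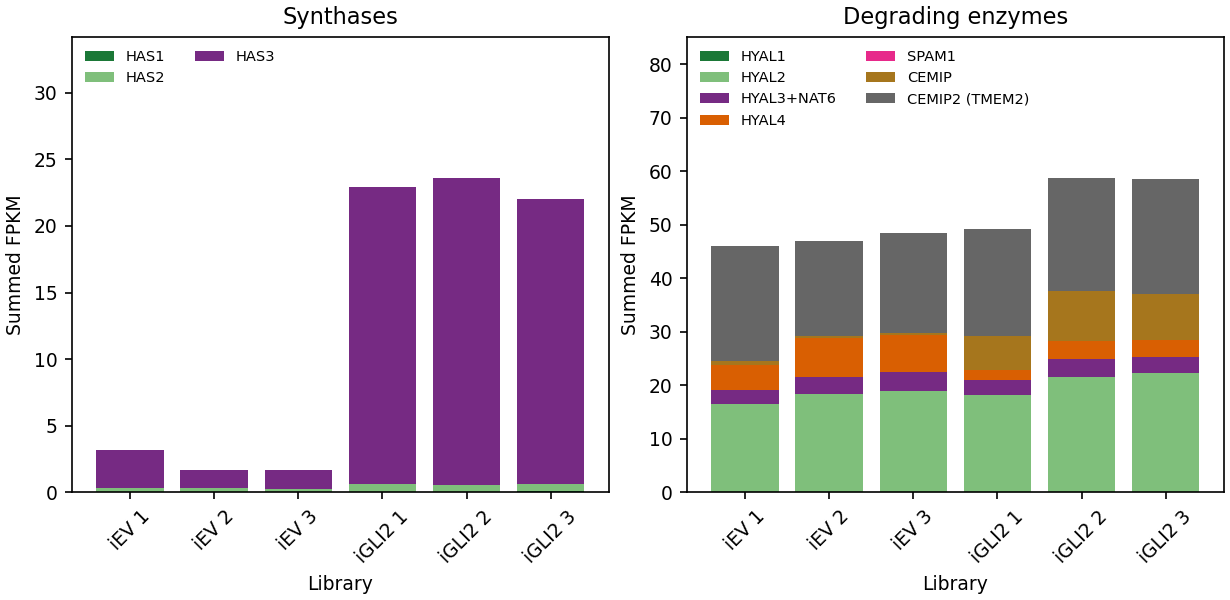
Summed FPKM of the synthases (left) and of the genes of the hyaluronidase list (right) in each library, stacked by gene, with both axes starting at 0. The right sum includes HYAL4, which acts mainly on chondroitin sulfate, and the merged entry of HYAL3 with NAT6. The synthase sum was 1.63 to 3.20 FPKM in iEV and 22.0 to 23.6 FPKM in iGLI2, nearly all HAS3, and the right sum was 45.9 to 48.4 and 49.2 to 58.7 FPKM.

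UGDH, which oxidizes UDP-glucose to UDP-glucuronate and so supplies 1 of the 2 sugar donors, was the most abundant member per transcript length. Its level was 52.7, 52.7 and 51.9 FPKM in iEV and 53.4, 56.3 and 56.5 FPKM in iGLI2. All iGLI2 values were above all iEV values, by little (52.4 ± 0.457 against 55.4 ± 1.75 FPKM), and the difference of 0.08 (95% interval -0.06 to 0.21) did not pass the test (limma adjusted p = 0.369). UGDH, HAS3 and CEMIP are the 3 of the 6 tested members whose groups did not overlap, and 42.0% of all tested genes had groups that did not overlap. The interval bounds the fold, on the FPKM + 1 scale, between 0.962 and 1.16. The gene, on the minus strand with 12 exons, lies in a table locus that holds several other genes.

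The neighbouring steps of donor supply were mixed. UGP2, which makes UDP-glucose, rose from 52.7 ± 2.50 to 69.8 ± 4.23 FPKM (log2 difference 0.40, limma adjusted p = 0.0131). This call was lost without iEV replicate 2 (adjusted p = 0.0632, limma) and without iEV replicate 3 (0.0552). PGM1, which interconverts glucose phosphates a step earlier, fell from 16.6 ± 1.35 to 12.9 ± 0.761 FPKM (log2 difference -0.34, limma adjusted p = 0.0305) and passed in 8 of 15 alternative settings. Of the 6 fits that left out a library, the call held only without iGLI2 replicate 1, and the highest adjusted p was 0.113 (limma). UXS1, which turns UDP-glucuronate into UDP-xylose and thereby draws on the same donor, was at 39.1, 39.5 and 41.2 FPKM in iEV and at 153, 226 and 221 FPKM in iGLI2. The mean went from 40.0 ± 1.12 to 200 ± 40.7 FPKM, with iGLI2 replicate 1 the lowest of its group, and the log2 difference was 2.27 (SE 0.16, limma adjusted p = 6.18e-04). Of the 6 genes of UDP-N-acetylglucosamine supply, all tested, none passed the limma test after adjustment, against 21.9% of all genes tested. GFPT1 and GFPT2 had an unadjusted p under 0.05. GFPT2, a form of the first, rate-limiting enzyme of that route, was at 0.352, 0.672 and 0.933 FPKM in iEV and at 1.06, 3.29 and 3.21 FPKM in iGLI2 (log2 difference 1.03, limma adjusted p = 0.0696). GFPT2 too reached the level needed for testing only through its iGLI2 libraries.

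CEMIP, a secreted protein needed for hyaluronan breakdown in several cell types, was the member with the largest ratio of means. It has 30 exons in the MANE Select transcript and lies in the table's locus chr15:81071684-81282219. Its level was 0.577, 0.280 and 0.419 FPKM in iEV and 6.27, 9.36 and 8.53 FPKM in iGLI2. The gap between the groups was wide, and iGLI2 replicate 1, the library with the least GLI2, had the lowest value of its group. HYAL2, HYAL3 with NAT6, UGDH and HYAL4 were also lowest of their group in that library, and HAS3, HAS2, HMMR and HYAL1 were not. HYAL2, HYAL3 with NAT6 and HYAL4 were lowest of their group in iEV replicate 1 as well, where GLI2 was at 0.466 FPKM. A link to the level of GLI2 was not tested. The means were 0.425 ± 0.148 and 8.05 ± 1.60 FPKM (SD, n = 3 each). The difference on the log2(FPKM + 1) scale was 2.66 (SE 0.16, 95% interval 2.27 to 3.04, limma adjusted p = 3.83e-04), the 51st largest increase. On the log2 ratio of the means it was 4.24. Its iEV mean of 0.425 FPKM was under the 1 FPKM needed for testing, so CEMIP was tested only because of its iGLI2 level. HAS2, low in both groups, was not tested. MESDC2, an endoplasmic reticulum chaperone gene on the opposite strand in the same locus, was at 23.1 ± 1.76 and 21.4 ± 1.04 FPKM (adjusted p = 0.376, limma).

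The hyaluronidases of the cluster on chromosome 3 showed no difference that passed. HYAL2, a membrane-anchored hyaluronidase, lies on the minus strand at chr3:50355221-50360281 and was at 16.4, 18.3 and 18.8 FPKM in iEV and 18.0, 21.4 and 22.2 FPKM in iGLI2. The groups overlapped (17.8 ± 1.29 against 20.5 ± 2.21 FPKM), and the difference was 0.19 (95% interval -0.05 to 0.43, limma adjusted p = 0.227). HYAL2 did pass without iGLI2 replicate 1 (difference 0.28, limma adjusted p = 0.0459) and after the small RNA genes were left out (0.27, adjusted p = 0.0481, limma).

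HYAL3, a relative of HYAL2 with little known activity of its own, shares its entry with NAT6, an acetyltransferase gene at the same place (chr3:50330259-50336899), so the value holds reads of either gene. It was 2.69, 3.18 and 3.61 FPKM in iEV and 2.93, 3.30 and 3.09 FPKM in iGLI2. The iGLI2 values lay inside the iEV range, and the difference was -0.01 (95% interval -0.26 to 0.23, limma adjusted p = 0.94). HYAL1, the lysosomal hyaluronidase at chr3:50337320-50349812, was near the bottom of the table, at 0.0695, 0.0737 and 0.0743 FPKM in iEV and 0.0511, 0.0910 and 0.0274 FPKM in iGLI2. Its groups overlapped, and at this level no direction can be read.

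Outside the 8 genes, 3 more genes of the hyaluronidase list were in the table. HYAL4, whose product acts mainly on chondroitin sulfate, was at 4.67, 7.22 and 6.78 FPKM in iEV and 1.83, 3.42 and 3.21 FPKM in iGLI2. It fell from 6.22 ± 1.36 to 2.82 ± 0.864 FPKM (log2 difference -0.93, SE 0.22, limma adjusted p = 0.0331). The call was lost in 5 of 14 alternative settings, namely without iEV replicate 2, iEV replicate 3, iGLI2 replicate 2 or iGLI2 replicate 3 and with the sample code's digit used as a block, with a highest adjusted p of 0.121 (limma). CEMIP2, listed as TMEM2 and the closest relative of CEMIP, was at 19.3 ± 1.90 and 20.9 ± 0.741 FPKM (log2 difference 0.11, limma adjusted p = 0.393). SPAM1, the sperm hyaluronidase, was listed at 0 in 5 of the 6 libraries.

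The 7 genes of the hyaluronidase list together came to 45.9, 46.9 and 48.4 FPKM in iEV and 49.2, 58.7 and 58.5 FPKM in iGLI2. HYAL4 and the merged entry of HYAL3 with NAT6 are included, so this sum is not one of hyaluronan breakdown alone. CEMIP made up 1.26, 0.598 and 0.865% of this sum in iEV and 12.7, 15.9 and 14.6% in iGLI2. HYAL2 held 35.7 to 39.1% of it over all 6 libraries, and CEMIP2, listed as TMEM2, held 36.0 to 46.8%. HYAL4 went from 10.2, 15.4 and 14.0% to 3.72, 5.82 and 5.48%, so that CEMIP, below HYAL4 in every iEV library, stood above it in every iGLI2 library.

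HMMR, a hyaluronan-binding protein that also acts at the mitotic spindle, was at 30.4, 25.2 and 26.9 FPKM in iEV and 26.6, 26.1 and 27.3 FPKM in iGLI2, over the table's locus chr5:162887517-162921064. The iGLI2 values lay inside the range of the controls (27.5 ± 2.63 against 26.7 ± 0.611 FPKM), and the difference was -0.04 (95% interval -0.23 to 0.16, limma adjusted p = 0.767). The interval leaves room for folds of 0.850 to 1.12 on the FPKM + 1 scale. Of 20 mitotic genes, all tested, none was higher in the limma test and 3 were lower, with a median difference of -0.04. Over all genes tested, 10.1% were higher and 11.8% lower. The 3 were CCNB2 (log2 difference -0.29), the activator of the anaphase-promoting complex CDC20 (-0.32) and the checkpoint kinase BUB1B, merged in the table with PAK6 (-0.50). At an unadjusted p under 0.05 there was still no increase, and the mitotic kinase AURKB was lower as well (-0.22, limma adjusted p = 0.0601).

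Among the 8 hyaluronan receptors, 5 were tested, 1 was higher and 1 lower, against 10.1% higher and 11.8% lower over all genes tested. CD44, the main surface receptor, was at 44.1, 39.0 and 37.1 FPKM in iEV and at 75.6, 71.7 and 72.6 FPKM in iGLI2. The groups were well separated, and CD44 rose 1.83-fold in the means (log2 difference 0.86, SE 0.08, limma adjusted p = 0.00138). TLR2, an innate immune receptor that can respond to hyaluronan fragments, fell from 6.16, 4.95 and 4.62 FPKM to 2.38, 1.32 and 1.62 FPKM (log2 difference -1.18, limma adjusted p = 0.00591). TLR4 (log2 difference 0.30, limma adjusted p = 0.118) and LAYN (0.56, adjusted p = 0.158) did not pass. LYVE1, STAB1 and STAB2, receptors known from lymphatic and sinusoidal endothelium, were listed at 0 in every iEV library. In iGLI2 libraries they were at most 0.0116 FPKM.

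Over the hyaluronan lists as a whole, 46 genes were in the table and 26 were tested, of which 4 were higher (HAS3, UGP2, CEMIP and CD44), 4 lower (PGM1, HYAL4, HEXA and TLR2) and 18 passed in neither direction. The median log2 difference was 0.09. Over all genes tested, 21.9% passed, 10.1% as higher and 11.8% as lower. Without the 8 members, 20 genes were tested, with 2 higher and 4 lower. HEXA, a subunit of the lysosomal enzyme that removes terminal N-acetylhexosamine, fell from 56.5 ± 3.06 to 45.7 ± 3.76 FPKM (log2 difference -0.30, limma adjusted p = 0.0469), a call that held in 4 of 15 alternative settings and, among the fits that left out a library, only without iGLI2 replicate 1. Of the 16 matrix proteins that bind hyaluronan, 13 were under the level needed for testing and none of the other 3 (VCAN, BCAN and HAPLN3) passed the limma test, also at an unadjusted p under 0.05.

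**Figure D3:**
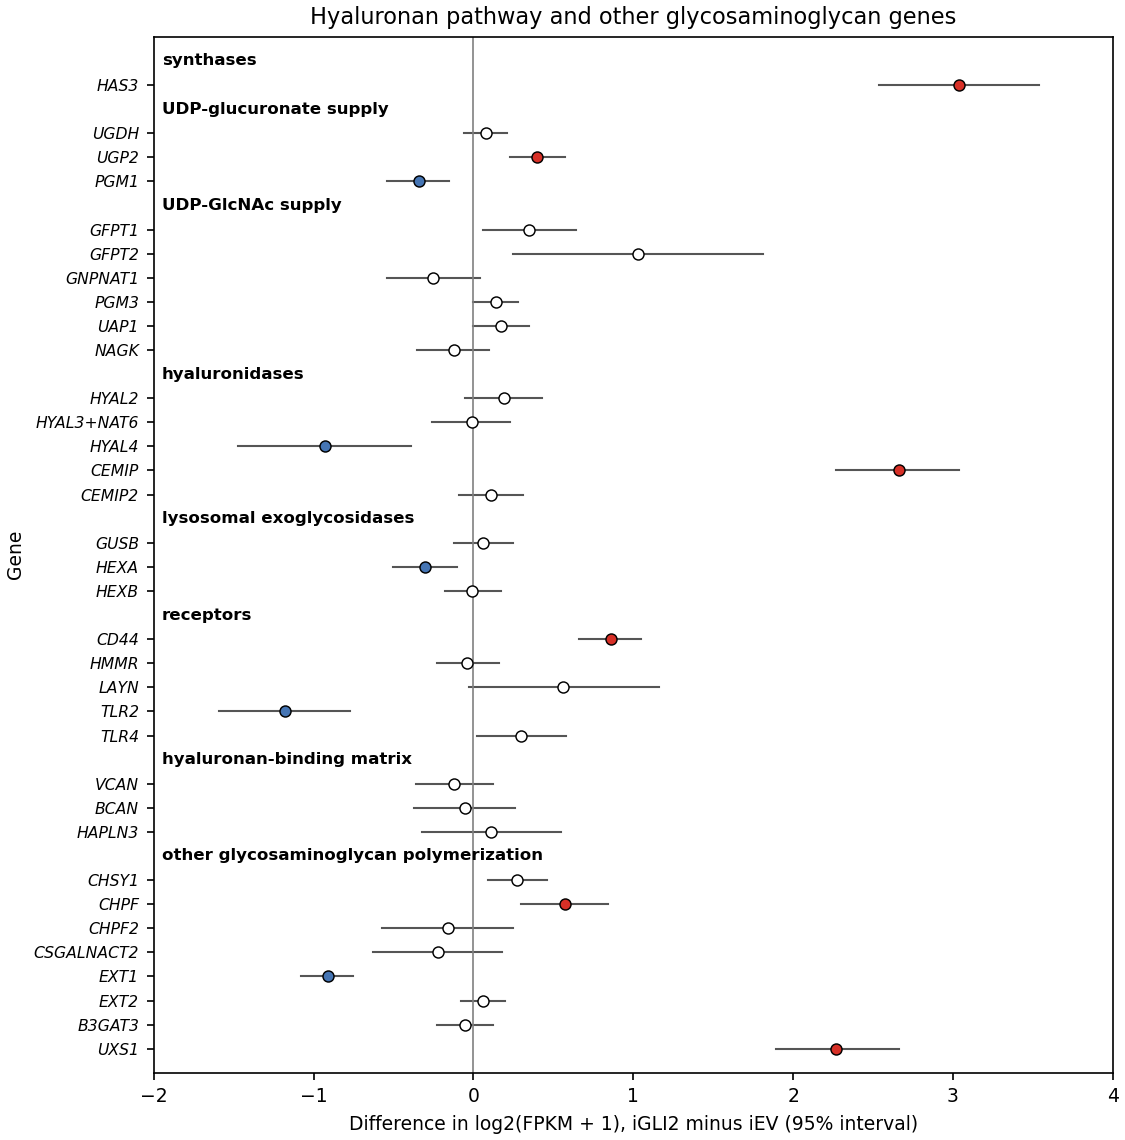
Difference in log2(FPKM + 1), iGLI2 minus iEV, for every tested gene of the hyaluronan lists and of the list for other glycosaminoglycans, with 95% intervals. Filled points passed an adjusted p of 0.05 (red higher, blue lower) and open points did not. HAS3 (3.04), CEMIP (2.66) and UXS1 (2.27) lie furthest to the right and TLR2 (-1.18) furthest to the left.

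The list for other glycosaminoglycans held 10 genes, of which 8 were tested, 2 were higher and 1 lower, with a median difference of 0.00. UXS1, among the higher, acts on a sugar donor, as given above, and not in polymerization. The shares over all genes tested were 10.1% higher and 11.8% lower. Beside UXS1, the chondroitin polymerizing factor CHPF was higher, at 58.0 ± 3.53 against 86.8 ± 11.0 FPKM (log2 difference 0.57, limma adjusted p = 0.0165). CHPF lost its call in 4 of the 6 fits that left out a library, namely iEV replicate 2, iEV replicate 3, iGLI2 replicate 2 or iGLI2 replicate 3, with a highest adjusted p of 0.0699 (limma). EXT1, a heparan sulfate polymerase, fell from 18.4 ± 1.07 to 9.27 ± 0.467 FPKM (log2 difference -0.91, limma adjusted p = 7.46e-04), while its partner EXT2 was at 34.9 ± 1.05 and 36.5 ± 1.41 FPKM (adjusted p = 0.504, limma).

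FPKM is per transcript length, so the members can be ordered by level within a group. In iEV cells the order of the means was UGDH (52.4 FPKM), HMMR (27.5), HYAL2 (17.8), HYAL3 with NAT6 (3.16), HAS3 (1.91), CEMIP (0.425), HAS2 (0.256) and HYAL1 (0.0725). The single libraries of HYAL3 with NAT6 and of HAS3 overlapped, through HAS3 in iEV replicate 1 (2.93 FPKM) alone. Those of CEMIP and HAS2 overlapped as well, and no test compared genes within a group. In iGLI2 cells the order was UGDH (55.4 FPKM), HMMR (26.7), HAS3 (22.2), HYAL2 (20.5), CEMIP (8.05), HYAL3 with NAT6 (3.11), HAS2 (0.594) and HYAL1 (0.0565). Here the libraries of HAS3 and HYAL2 overlapped. By the means alone, HAS3 thus went from below the merged entry of HYAL3 with NAT6 to above HYAL2. CEMIP went from below that merged entry to above it.

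**Figure D4:**
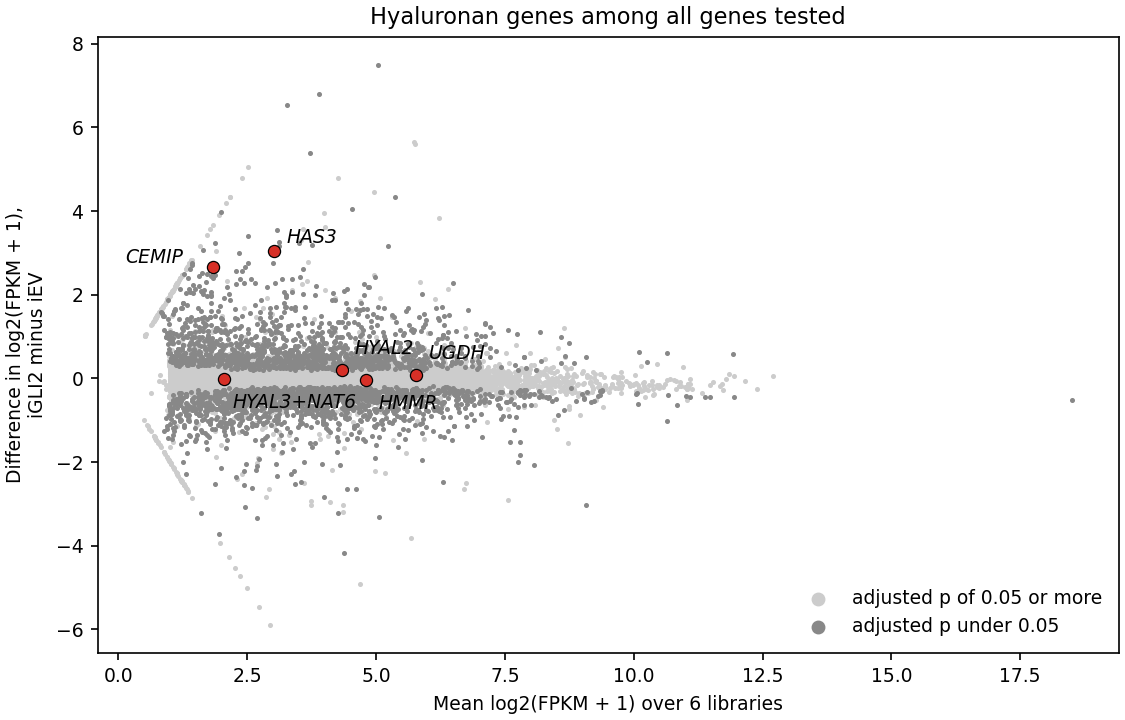
Difference in log2(FPKM + 1), iGLI2 minus iEV, against the mean level for the 12493 genes tested, with the 6 tested members in red. HAS3 and CEMIP lie near the upper edge of the cloud (3.04 and 2.66), among the 76 genes that passed with a log2 difference of at least 2, and the other 4 lie close to 0.

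The genes whose levels followed those of the members most closely over the 6 libraries are given as a description. The libraries form 2 groups of 3, so any gene with a similar step between the groups scores high. For HAS3 these were the sialyltransferase ST3GAL1 (Pearson r = 0.9997, 10.5 to 38.7 FPKM from the iEV to the iGLI2 mean), the retinol dehydrogenase RDH10 (0.9995, 26.8 to 87.2 FPKM) and the kallikrein KLK6 (0.9992, 14.0 to 36.8 FPKM). For CEMIP they were the death-associated kinase DAPK1 (0.9994, 2.15 to 7.95 FPKM), CNIH3 (0.9990, 7.48 to 20.4 FPKM) and PALD1 (0.9990, 0.338 to 4.53 FPKM). The nearest to HYAL2 were ZFR, ZSCAN26 and NPIPA1 (0.9935 to 0.9958), to HYAL3 LYRM1, TTF1 and ANKRD30BP2 (0.9783 to 0.9882), to HMMR ATXN2, CCNF and PPP1R12A (0.9635 to 0.9801), and to UGDH HYI, DGCR6 and SBF1 (0.9975 to 0.9993).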

How the data were processed

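Total RNA of 6 YAPC libraries (Illumina TruSeq RNA kit) was sequenced, and Trimmomatic trimmed the reads, which TopHat2 then placed on hg19. The submitters' processing notes name Cuffdiff 2.1.1. The authors made the deposited FPKM values, 1 per gene and library, from these alignments. The header states no unit, and FPKM was inferred from the values and from loci in the Cufflinks form. The gene annotation, strand setting and scaling are not given in the sources used here. Of 27024 entries, 1252 off the primary chromosomes and 330 of a repeated name with a lower mean were left out. Loci were given from base 1.

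The test was that of limma 3.58.1 (R 4.3.3), two-sided with an intensity trend, applied to log2(FPKM + 1) of the 12493 genes averaging 1 FPKM or more, with Benjamini-Hochberg adjustment and a threshold of 0.05. The fit was tested on simulated data. Reads cannot be counted from FPKM, so no counting interval is given. Groups came from the sample labels. Exons and start sites came from GENCODE 44 lifted to GRCh37, sequence from GRCh37, and the promoter background from RefSeq. The promoters of HAS2 and HAS3 are not reported here. Plots used matplotlib 3.10.9. Alternatives were other scalings, pseudocounts, filters and moderation, blocks and leaving out each library.

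The members, the gene lists (written from general knowledge) and the tests were chosen with earlier results of these data known. Genes were to be named if they were members, list genes that passed, genes needed to read a member, overlapping genes or the 3 genes most correlated with each tested member. List genes that did not pass (GFPT1, GFPT2, TLR4, LAYN, EXT2 and AURKB among them) and neighbours of the loci (SEMA3B, KLHL5, SMIM14 and RPL9) fall outside this rule and were chosen after their values were seen. IFRD2 and TUSC2 fall under the rule as overlapping genes, but their values too were seen before they were chosen for description.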

Additional observations from a re-analysis of the deposited data

How the results depend on the processing

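HAS3 passed in all 15 alternative settings (log2 difference 2.90 to 3.56, highest limma adjusted p = 0.00618) and CEMIP in all 14 that tested it (2.55 to 3.98, highest 0.00493), the upper ends with a pseudocount of 0.1. With a mean of at least 5 FPKM required, CEMIP was not tested and 1 member passed. In the other settings 2 or 3 did. When single libraries were left out, the count of genes that passed ran from 1223 (without iEV replicate 2) to 3753 (without iGLI2 replicate 1), against 2742 with all libraries, and members called stayed at 2 to 3. It was 1303 without iEV replicate 3, 1357 without iGLI2 replicate 2 and 1510 without iGLI2 replicate 3. HYAL3 changed sign after the small RNA genes were left out (0.05), without iEV replicate 3 (0.06) and without iGLI2 replicate 1 (0.02), in a range of -0.10 to 0.06 over the libraries left out. HMMR did so after the small RNA genes were left out (0.04) and without iEV replicate 1 (0.03), in a range of -0.10 to 0.03. Neither passed the threshold. The cause was not tested.

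Deviations of same-numbered libraries correlated at 0.204, 0.092 and 0.028, and not every library correlated best with its own number, so the numbers were not taken to pair the libraries. With the replicate block 3928 genes passed, HYAL2 among them (0.19, limma adjusted p = 0.0478). With the sample code's digit as a block, 2084 passed. Unknown depth leaves HAS2 and HYAL1 without a detection limit.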

Other observations

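Of 3 genes next to the hyaluronidase cluster on chromosome 3, chosen after their values were seen, SEMA3B was higher, IFRD2 was lower and TUSC2 did not pass the test. SEMA3B, a secreted semaphorin at chr3:50304990-50314602 (hg19), was at 0.505, 0.531 and 0.872 FPKM in iEV replicates 1 to 3 and 2.57, 5.44 and 5.32 FPKM in iGLI2 replicates 1 to 3. It rose 6.99-fold in the means (log2 difference 1.69, limma adjusted p = 0.00719). SEMA3B reached the level needed for testing only through its iGLI2 libraries, with an iEV mean of 0.636 FPKM. IFRD2, which overlaps HYAL3 on the same strand in the annotation, fell from 31.9 ± 1.91 to 22.1 ± 3.45 FPKM (log2 difference -0.52, limma adjusted p = 0.0324). TUSC2, which overlaps HYAL2 on the same strand in the same annotation, was at 17.5 ± 0.446 and 15.6 ± 0.606 FPKM (adjusted p = 0.104, limma). In the table's own loci neither overlap is present. There IFRD2 (chr3:50316458-50330026) lies apart from HYAL3, and TUSC2 (chr3:50362340-50365669) lies apart from HYAL2.

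In the table's locus of UGDH, 3 tested neighbours were chosen after their values were seen, and 2 of them rose. KLHL5 went from 45.2 ± 2.33 to 73.2 ± 6.54 FPKM (log2 difference 0.68, limma adjusted p = 0.00391) and SMIM14 from 39.7 ± 2.60 to 56.6 ± 1.72 FPKM (0.50, adjusted p = 0.00531, limma). The ribosomal protein gene RPL9 was at 1344 ± 97.6 and 1278 ± 46.1 FPKM and, like UGDH, did not pass (-0.07, adjusted p = 0.554, limma).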
